A study of Mus musculus with 24 samples.

Results

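The 37 genes described here make up the core of the unfolded protein response and the integrated stress response. They were followed in mouse lens as a set grouped by what the genes are known to do. The set was chosen with earlier results of these data known. All 37 were found among the 24415 genes of the count table. They were split into 4 roles. There were 15 chaperones and folding enzymes of the endoplasmic reticulum (ER), 9 sensors and transcription factors, 6 targets of the integrated stress response and 7 members of ER-associated degradation. RNA was sequenced from lens epithelia and from lens fibers of C57BL/6 mice in 3 conditions, with 4 libraries in each of the 6 groups and 24 libraries in all. The WT mice were untreated. LEGSKO mice are known to lack Gclc in the lens only. Gclc encodes the catalytic part of the enzyme that starts glutathione synthesis, and these lenses are described as mildly short of glutathione. LEGSKO+BSO mice carry the same knockout and were given buthionine sulfoximine (BSO), which inhibits that enzyme, and are described as severely short of it. The question was how these depths of glutathione shortage change expression within each tissue. The labels name neither the Cre driver nor an age, a sex or a sequencing batch, and they do not say whether each library came from its own animal, so the p-values below measure the spread between libraries.

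The unfolded protein response is the cell's answer to proteins that fail to fold in the ER. Its sensors are the kinase and nuclease IRE1 (Ern1), the kinase PERK (Eif2ak3) and the membrane-bound factor ATF6, all of which are held by the chaperone BiP (Hspa5). IRE1 splices the messenger of Xbp1, cleaved ATF6 enters the nucleus, and PERK phosphorylates the initiation factor eIF2, which lowers translation in general while favouring that of Atf4. XBP1 and ATF6 raise chaperones and degradation factors, and ATF4 raises stress genes such as Ddit3 (CHOP), Atf5, Trib3 and Ppp1r15a (GADD34), whose product directs removal of the phosphate from eIF2. Other kinases feed the same eIF2 switch from amino acid shortage, viral RNA or heme shortage, which is why that arm is called the integrated stress response. In lens, fiber cells differentiate from the epithelium, make crystallins and membrane proteins in bulk and then remove their ER and other organelles. Disulfide bonding in the ER depends on the redox state of that compartment, in which glutathione takes part. Gene counts do not show the splicing of Xbp1, the cleavage of ATF6 or the phosphorylation of eIF2.

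The sequences through which these genes are known to be switched on were looked for first, since several members that moved in fibers carry one of them. Each gene's RefSeq window ran from 250 bases before to 50 bases after its annotated start on GRCm38.p6, and 33 of the 37 members had one. Manf, Hyou1, Atf6 and Derl1 were without. Both strands were searched for 4 motifs, letter for letter. The ER stress element (ERSE) is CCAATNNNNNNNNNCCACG, a CCAAT and a CCACG held 9 bases apart, and 9 of the 33 members held it (27.3%), against 0.137% of all 27025 genes with a window. Those members were Hspa5, Hsp90b1, Pdia6, Calr, Canx, Dnajc3, Creld2, Syvn1 and Derl3. A second arrangement, ERSE-II, is ATTGGNCCACG and was found in Herpud1 and Dnajb11, which is 6.06% of members against 0.0444% of all genes. The letters TGACGTG of the unfolded protein response element (UPRE) were found in Hspa5 alone among members (3.03%, against 2.22% of all genes). The ATF4-type element TGATGNAA (CARE) was found in Trib3, Asns, Chac1, Herpud1 and Nupr1, which is 15.2% of members against 4.51% of all genes. No match overlapped a match to another of these motifs. A match describes letters in a window and does not show that a factor binds there. The motifs were picked as those already known for genes of this kind. High shares among the members were therefore to be found, and they test nothing about the set.

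The upstream 250 bases of Hspa5, the best known target, are shown whole because both a UPRE and an ERSE lie in them. They lie at chr2:34771840-34772089 on the plus strand and end at the base before the annotated start. The capitals mark the UPRE, at 157 bases upstream, and then the CCAAT and CCACG of the ERSE, which begins 65 bases upstream.
Hspa5: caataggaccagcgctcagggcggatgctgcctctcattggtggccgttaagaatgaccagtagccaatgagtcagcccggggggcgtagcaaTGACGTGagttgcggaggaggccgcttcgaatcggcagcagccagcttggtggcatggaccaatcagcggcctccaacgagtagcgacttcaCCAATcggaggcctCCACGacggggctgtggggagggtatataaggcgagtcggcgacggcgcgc

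The ERSE matches of the other 3 ERSE-bearing members that were lower in LEGSKO+BSO fibers (below) are shown next, followed by the ERSE-II of Herpud1 and the CARE of Nupr1, the member with the highest level per length. Each is read in the direction of the motif with 10 bases on either side, and the capitals mark the motif letters.
Hsp90b1, distal: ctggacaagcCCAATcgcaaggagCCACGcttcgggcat
Hsp90b1, proximal: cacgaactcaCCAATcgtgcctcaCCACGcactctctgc
Pdia6: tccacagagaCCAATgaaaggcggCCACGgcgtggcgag
Derl3: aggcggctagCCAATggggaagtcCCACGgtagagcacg
Herpud1: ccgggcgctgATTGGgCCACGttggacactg
Nupr1: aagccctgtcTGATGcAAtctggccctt
The distal Hsp90b1 stretch is chr10:86705628-86705666 on the minus strand and the proximal one chr10:86705523-86705561 on the plus strand. The Pdia6 stretch is chr12:17266481-17266519 (plus), that of Derl3 chr10:75893232-75893270 (minus), that of Herpud1 chr8:94386367-94386397 (plus) and that of Nupr1 chr7:126625563-126625590 (plus). The 9 bases between CCAAT and CCACG differ in every one of these ERSE matches. The fixed letters and their spacing are the same because the search required them.

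**Figure D1:**
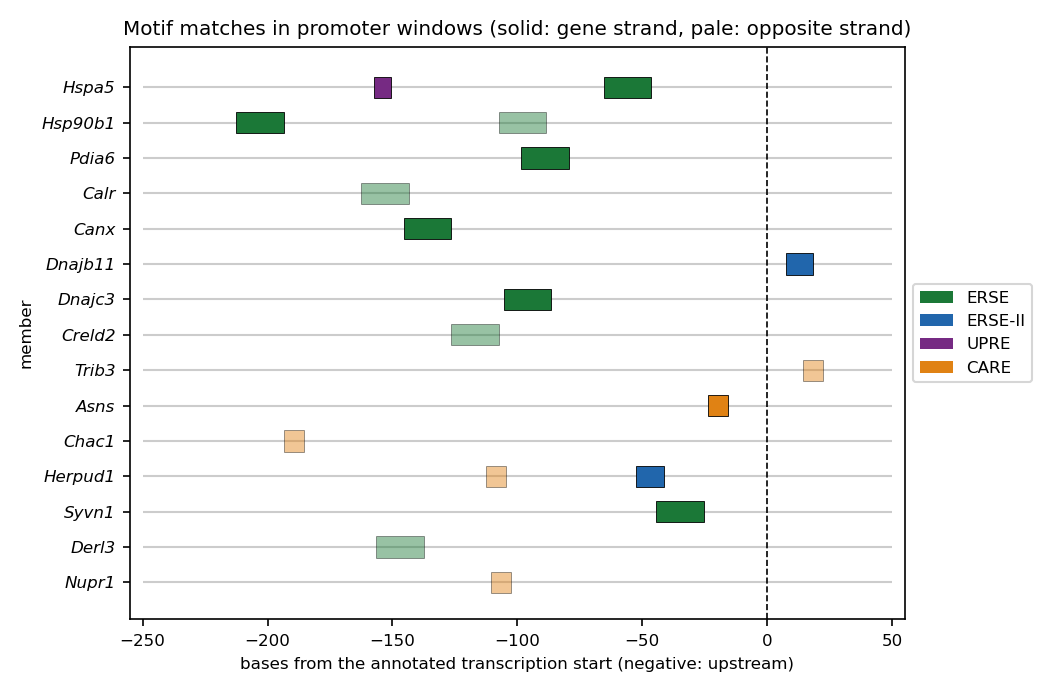
Positions of motif matches in the promoter windows of the members that hold any (horizontal axis: bases from the annotated transcription start, negative upstream; 1 line per member; colour: motif; solid on the strand of the gene, pale on the other strand). The ERSE matches lie between 212 and 26 bases upstream, and Hsp90b1 holds a pair.

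The libraries held between 19340282 and 46569611 counts. In fibers the LEGSKO+BSO libraries were the deepest, with 39034309 to 46569611 counts, against 22408316 to 25542479 for LEGSKO and 25708466 to 30007218 for WT. Library 1 of the WT fibers stood apart: crystallin genes took 50.1% of its counts and 27.6% to 34.3% of those of the other 11 fiber libraries. It lay above the other 3 WT fiber libraries for 14 members, below them for 16 and within them for 7, so the calls in fibers are given with and without it. Gclc ranged from 70.4 to 135 CPM (counts scaled to a common library total) in WT fibers, from 66.9 to 81.2 in LEGSKO fibers and from 69.3 to 79.3 in LEGSKO+BSO fibers, and the groups overlapped in epithelia too. A count over the whole gene does not check a deletion of part of it. Of 8 lens epithelial markers, 7 were higher in every epithelial library than in any fiber library (Sfrp1 was the exception), and crystallin genes took 7.05% to 14.7% of the counts of the epithelial libraries, below every fiber library. In these bulk libraries, fewer cells of a type and less RNA per cell cannot be told apart.

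The members differed widely in level. Per length, as CPM per kilobase of exon (RPKM, group means), Nupr1, a stress-induced chromatin-associated factor, stood first in both tissues of WT, with 609 ± 70.8 in epithelia and 492 ± 55.2 in fibers (SD, n = 4). Hsp90b1, the ER form of HSP90, came next, with 133 ± 6.86 in epithelia and 336 ± 13.6 in fibers (SD, n = 4). In epithelia it was followed by the lectin chaperone Canx (124), the disulfide isomerase Pdia3 (110) and the lectin chaperone Calr (103). In fibers it was followed by Pdia6, another disulfide isomerase (180), Herpud1, a membrane scaffold of ER-associated degradation (155), Calr (154) and Hspa5 (131). The order of the leading chaperones therefore differed between the tissues on the RPKM scale. In WT epithelia Chac1, Trib3 and Derl3 were the lowest members, and Chac1 and Trib3 had too few reads in fibers to be tested there.

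Fibers were compared with epithelia in each condition, which the series does not set out to do but which shows where in the lens the members are expressed. The counts were tested by edgeR (quasi-likelihood F test) with p-values adjusted by Benjamini-Hochberg over all genes, and a gene was called at an adjusted p below 0.05. In WT, 30 of 37 members differed between the tissues, 20 higher and 10 lower in fibers. Of all 15560 genes tested, 76.4% were called (37% higher and 39.4% lower), so the number of members called is near that of genes in general. The median log2 fold change of the members was 0.58, against -0.09 over all genes. In this comparison the levels are CPM scaled over all 24 libraries.

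Among members with a mean log2 CPM of at least 1, the phosphatase regulator Ppp1r15a, the scaffold Herpud1 and the factors Ddit3, Xbp1, Atf5 and Atf4 were furthest above epithelia. Derl3, with few counts, had a larger ratio and is given further on. Ppp1r15a was at 14.0, 17.9, 18.4 and 17.9 CPM in the WT epithelial libraries and at 195, 227, 233 and 204 CPM in the WT fiber libraries, a log2 fold change of 3.66 ± 0.11 (SE; edgeR adjusted p = 8.17e-19). Herpud1 was at 43.0, 58.4, 72.1 and 69.1 CPM in epithelia and at 333, 307, 282 and 287 CPM in fibers (log2 fold change 2.32, edgeR adjusted p = 3.82e-15). Neither gene's groups overlapped, and the gap between the tissues was several times the range within either.

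Ddit3, the factor CHOP, was at 7.70, 9.40, 10.8 and 8.26 CPM in WT epithelia and at 35.5, 44.3, 36.99 and 43.4 CPM in WT fibers (log2 fold change 2.15, edgeR adjusted p = 1.89e-14). Xbp1 was at 28.0, 33.9, 33.0 and 39.6 CPM in epithelia and at 112, 137, 139 and 147 CPM in fibers (log2 fold change 1.99, edgeR adjusted p = 1.26e-15). Atf4 was at 47.5 to 54.0 CPM in epithelia and at 122, 205, 184 and 211 CPM in fibers (log2 fold change 1.84, edgeR adjusted p = 3.18e-13). The lowest fiber value of Xbp1 and of Atf4 was that of library 1, and it still lay above every epithelial value. Atf5, an ATF4-related factor that is itself translated under eIF2 control, rose from 14.96 to 16.9 CPM in epithelia to 54.1 to 61.6 CPM in fibers (log2 fold change 1.87, edgeR adjusted p = 1.23e-14).

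The sensors themselves went the other way. Ern1 was at 9.22 to 12.5 CPM in WT epithelia and at 5.07 to 7.56 CPM in WT fibers (log2 fold change -0.67, edgeR adjusted p = 0.000429). Eif2ak3 was at 21.4 to 26.7 CPM in epithelia and at 14.8 to 20.8 CPM in fibers (log2 fold change -0.42, edgeR adjusted p = 0.00037). Of the sensor genes, Atf6 alone was called higher in fibers. Nupr1 was also called lower in fibers in WT, and Cebpb, a factor that pairs with ATF4 and CHOP, was not called.

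Among the chaperones, 9 of 15 were called higher in WT fibers (Calr, Creld2, Dnajb11, Dnajb9, Hsp90b1, Hspa5, Manf, Pdia6 and Sdf2l1) and 3 lower (P4hb, Pdia3 and Pdia4, all protein disulfide isomerases). Pdia3 was at 289 to 331 CPM in epithelia and at 219 to 255 CPM in fibers (log2 fold change -0.38, edgeR adjusted p = 3.7e-05). Canx, Dnajc3 and Hyou1 were not called. All 7 degradation members differed between the tissues. Besides Herpud1, the Derlins Derl1, Derl2 and Derl3 and the ubiquitin ligase Syvn1 were higher in fibers. Sel1l, the adaptor of that ligase, was at 105 to 134 CPM in epithelia and at 74.9 to 80.1 CPM in fibers (log2 fold change -0.65, edgeR adjusted p = 5.59e-08). Edem1, a lectin that delivers misfolded glycoproteins to degradation, fell from 26.7 to 33.5 CPM in epithelia to 9.98 to 17.1 CPM in fibers (log2 fold change -1.05, edgeR adjusted p = 4.27e-08). Syvn1 and its adaptor Sel1l were thus called in opposite directions in WT, but the Syvn1 difference was small. Without WT fiber library 1 it was 0.21 on the log2 scale (edgeR adjusted p = 0.0318), against -0.66 for Sel1l. In LEGSKO the sign of the Syvn1 difference changed with RLE scaling.

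Derl3, the Derlin best known from secretory cells, had 4, 2, 4 and 3 counts in the WT epithelial libraries and 53, 55, 47 and 72 in the WT fiber libraries. The fiber to epithelium ratio of summed, scaled counts was 31.5 in WT (95% interval 18.1 to 60.1, counting error only). It was 8.12 for LEGSKO (5.67 to 11.9) and 5.44 for LEGSKO+BSO (3.87 to 7.80). Chac1, which encodes a glutathione-degrading enzyme and is an ATF4 target, was higher in epithelia, by 10.5 times in WT (2.72 to 90.1, from 38 counts against 2). Ddit4, an inhibitor of mTORC1 signalling, was at 27.6 to 39.1 CPM in epithelia and at 22.5 to 27.7 CPM in fibers of WT, groups that overlap narrowly (log2 fold change -0.37, edgeR adjusted p = 0.0052). Trib3, Asns and Sesn2 were not called in WT.

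**Figure D2:**
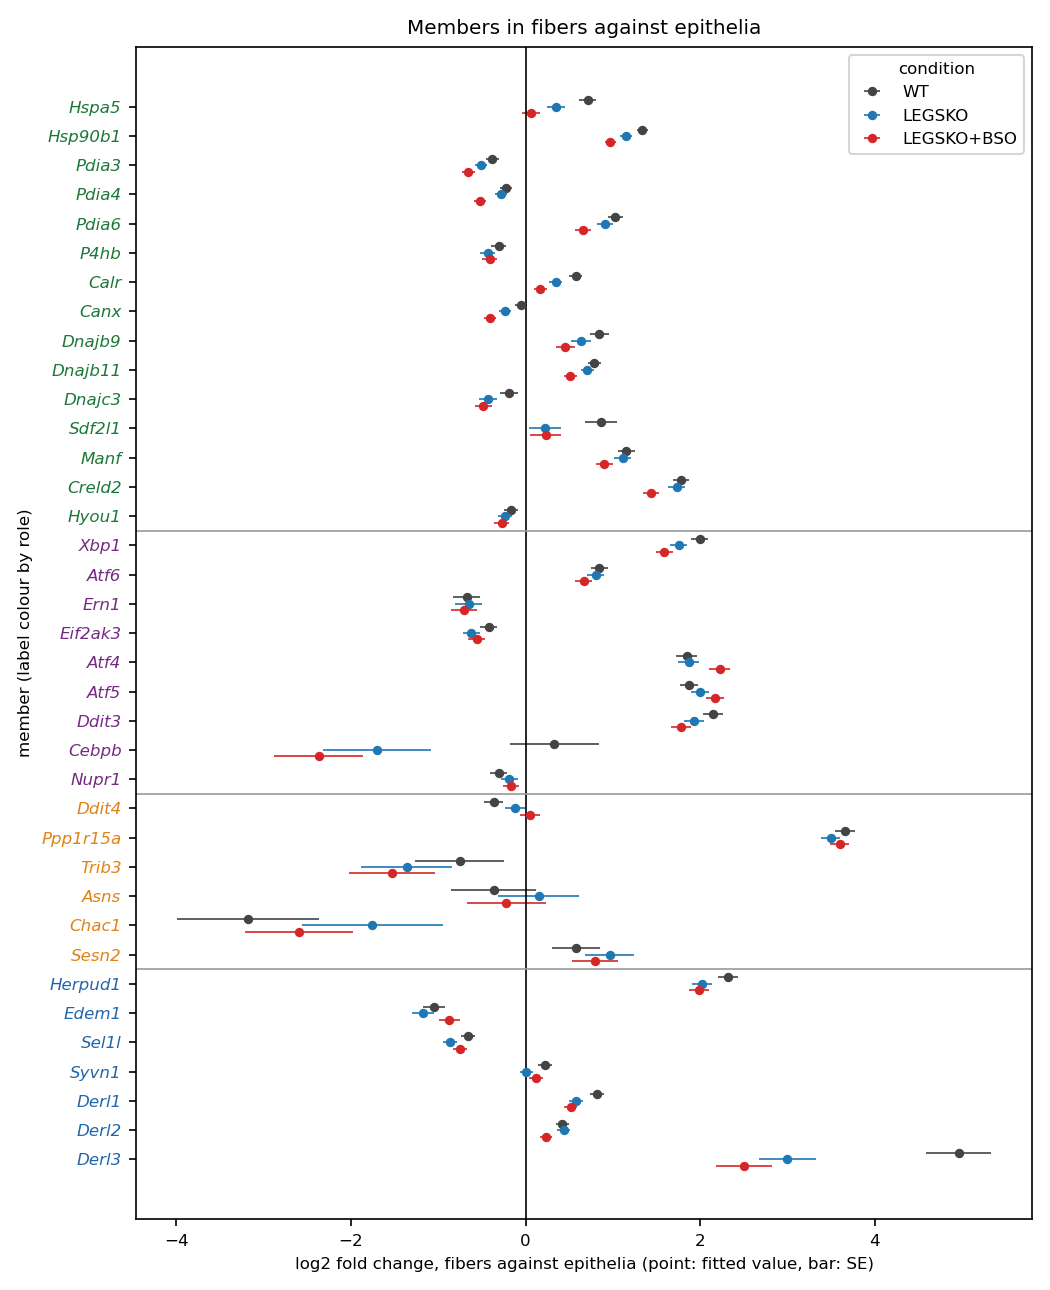
Log2 fold change of each member, fibers against epithelia (horizontal axis; points: fitted values, bars: SE), in the 3 conditions (colours), with member names coloured by role. Ppp1r15a lies at 3.66 in WT, and Hspa5 moves from 0.71 in WT to 0.06 in LEGSKO+BSO.

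The same comparison gave 31 members called in LEGSKO (19 higher, 12 lower) and 31 in LEGSKO+BSO (18 higher, 13 lower). Of all genes, 75.8% were called in LEGSKO (36.8% higher, 39.0% lower) and 78.9% in LEGSKO+BSO (38.1% higher, 40.8% lower). The members' median log2 fold change was 0.34 for LEGSKO and 0.17 for LEGSKO+BSO. Hspa5 was 0.71 above epithelia on the log2 scale in WT, 0.35 above in LEGSKO, and 0.06 above in LEGSKO+BSO, where it no longer passed (edgeR adjusted p = 0.561). Canx, Dnajc3 and Hyou1, not called in WT, were lower in fibers in both other conditions, and Cebpb was too. Without WT fiber library 1, 30 members were again called in WT and the Hspa5 value there was 0.55.

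Within fibers, 4 ER chaperones and a pair of Derlins were lower in the glutathione-deficient mice given BSO than in WT. In LEGSKO+BSO against WT, 7 of the 35 members tested were called, 6 lower (Hspa5, Hsp90b1, Pdia4, Pdia6, Derl1 and Derl3) and 1 higher (Atf5). Among all 13436 genes 5.52% were called, 2.47% lower and 3.05% higher. The members' log2 fold changes were negative in 24 of 35, with a median of -0.16 against -0.01 over all genes. Below, CPM values of fibers are scaled over the 12 fiber libraries.

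**Figure D3:**
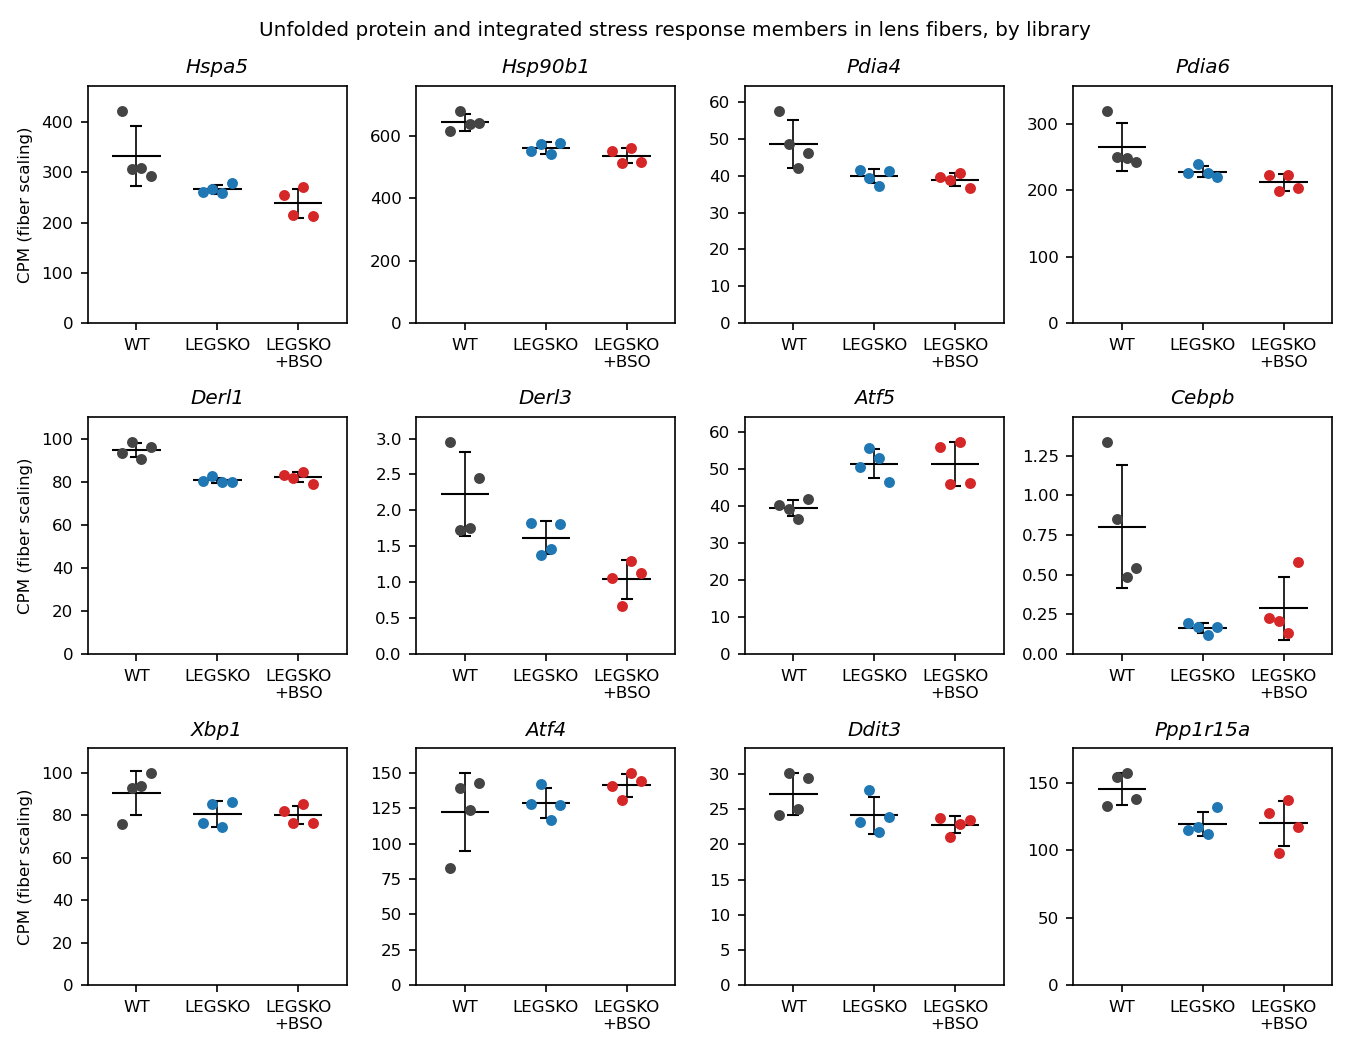
Levels in each fiber library (vertical axis: CPM scaled over fiber libraries; points: libraries, library 1 leftmost in each group; lines: mean ± SD) for the 8 members called in a fiber comparison of conditions and for Xbp1, Atf4, Ddit3 and Ppp1r15a. The LEGSKO+BSO values of Hspa5, from 213 to 271, lie below the lowest WT value of 293.

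Hspa5, the chaperone BiP, was at 422, 307, 308 and 293 CPM in WT fibers, at 261, 267, 259 and 280 CPM in LEGSKO and at 255, 214, 271 and 213 CPM in LEGSKO+BSO. Every LEGSKO and LEGSKO+BSO value lay below every WT value, and WT library 1 was far above the other 3. The fall in LEGSKO+BSO was -0.48 ± 0.11 on the log2 scale, 1.39-fold (edgeR adjusted p = 0.0233). Without WT library 1 it was -0.35 (edgeR adjusted p = 0.0134). LEGSKO alone gave -0.32 ± 0.11, which did not pass (edgeR adjusted p = 0.177), and -0.19 without WT library 1 (edgeR adjusted p = 0.199).

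Hsp90b1 was at 615, 679, 639 and 641 CPM in WT, at 550, 575, 543 and 578 CPM in LEGSKO and at 553, 515, 560 and 518 CPM in LEGSKO+BSO. WT library 1 was the lowest of its group here, and the groups still did not overlap. The fall in LEGSKO+BSO was -0.26 ± 0.06 on the log2 scale (edgeR adjusted p = 0.0304) and -0.29 without WT library 1 (edgeR adjusted p = 0.0090).

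The disulfide isomerases Pdia4 and Pdia6 fell by a similar amount. Pdia4 was at 57.5, 48.6, 42.1 and 46.1 CPM in WT, at 41.5, 39.5, 37.3 and 41.2 CPM in LEGSKO and at 39.6, 38.8, 40.7 and 36.7 CPM in LEGSKO+BSO (log2 fold change of LEGSKO+BSO -0.32 ± 0.08, edgeR adjusted p = 0.0417). Pdia6 was at 319, 250, 249 and 242 CPM in WT, at 226, 239, 227 and 220 CPM in LEGSKO and at 223, 199, 223 and 204 CPM in LEGSKO+BSO (log2 fold change -0.32 ± 0.09, edgeR adjusted p = 0.0422). In both, the highest value of all 12 fiber libraries was that of WT library 1. Without it, both passed with smaller changes, -0.23 for Pdia4 (edgeR adjusted p = 0.0458) and -0.22 for Pdia6 (edgeR adjusted p = 0.0360).

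Of the 15 chaperones, 13 had a negative log2 fold change in LEGSKO+BSO fibers (median -0.21) and 4 passed. Their summed level was 2389 to 2609 CPM in WT, 2128 to 2219 CPM in LEGSKO and 2001 to 2199 CPM in LEGSKO+BSO, so neither deficient group overlapped WT. Canx was at 329 to 362 CPM in WT and at 295 to 315 CPM in LEGSKO+BSO, a value of -0.21 that narrowly missed the threshold (edgeR adjusted p = 0.0526).

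The degradation members Derl1 and Derl3 form part of the channel that passes misfolded proteins out of the ER. Derl1 was at 93.4, 98.2, 90.7 and 95.9 CPM in WT, at 80.3, 82.5, 79.9 and 79.9 CPM in LEGSKO and at 83.3, 81.9, 84.4 and 79.0 CPM in LEGSKO+BSO. Both deficient groups lay wholly below WT. Its log2 fold change was -0.23 ± 0.05 for LEGSKO (edgeR adjusted p = 0.0484) and -0.20 ± 0.05 for LEGSKO+BSO (edgeR adjusted p = 0.0422). Derl3 was at 2.95, 1.73, 1.76 and 2.45 CPM in WT, at 1.82, 1.38, 1.47 and 1.81 CPM in LEGSKO and at 1.06, 0.662, 1.30 and 1.13 CPM in LEGSKO+BSO. The LEGSKO+BSO libraries lay below all others, and the fall from WT was -1.09 ± 0.25 on the log2 scale, 2.12-fold (edgeR adjusted p = 0.0226). It rests on 32 to 58 counts a library in LEGSKO+BSO and 47 to 72 in WT. Without WT library 1 it was -0.93 (edgeR adjusted p = 0.0311).

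Atf5 was the only member called higher in both deficient groups. It was at 40.1, 39.3, 36.6 and 41.8 CPM in WT, at 50.6, 55.8, 52.9 and 46.5 CPM in LEGSKO and at 56.0, 46.0, 57.2 and 46.3 CPM in LEGSKO+BSO. All 8 deficient libraries lay above the 4 WT libraries. The log2 fold change was 0.38 ± 0.09 in both comparisons (edgeR adjusted p = 0.0404 for LEGSKO and 0.0212 for LEGSKO+BSO), and it was 0.38 and 0.39 without WT library 1. The comparisons share the WT libraries. Nupr1 also had higher means in both, 576 RPKM in LEGSKO and 557 in LEGSKO+BSO fibers against 492 in WT, and was not called. Without WT library 1 its log2 fold changes were 0.28 (edgeR adjusted p = 0.0755) and 0.24 (edgeR adjusted p = 0.0985).

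The usual readouts of the response did not rise with Atf5. Atf4 was at 82.7, 139, 124 and 143 CPM in WT fibers, at 117 to 142 CPM in LEGSKO and at 131 to 150 CPM in LEGSKO+BSO, and the groups overlapped (LEGSKO+BSO log2 fold change 0.21, edgeR adjusted p = 0.382). The lowest of these values, 82.7, was that of WT library 1, and without it the log2 fold change was 0.060 (edgeR adjusted p = 0.695). Xbp1 was at 75.9 to 99.8 CPM in WT and at 76.4 to 85.2 CPM in LEGSKO+BSO (-0.18, edgeR adjusted p = 0.228). Ddit3 was at 24.1 to 30.1 CPM in WT and at 21.1 to 23.8 CPM in LEGSKO+BSO, which did not overlap and did not pass (-0.26, edgeR adjusted p = 0.111). Ppp1r15a, with 133 to 157 CPM in WT and 97.9 to 137 CPM in LEGSKO+BSO, gave -0.28 (edgeR adjusted p = 0.109). None of the 4 integrated stress response targets tested in fibers was called by edgeR or by DESeq2, and 1 had an unadjusted p below 0.05.

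In LEGSKO against WT fibers, 3 of 35 members were called, against 1.64% of all genes: Atf5 higher, and Derl1 and Cebpb lower. Cebpb had 24, 27, 13 and 16 counts in WT libraries, 5, 4, 3 and 4 counts in LEGSKO libraries and 10, 10, 6 and 25 counts in LEGSKO+BSO libraries. The LEGSKO libraries lay below the WT libraries (log2 fold change -2.23 ± 0.52, edgeR adjusted p = 0.0453), while LEGSKO+BSO overlapped WT (-1.44, edgeR adjusted p = 0.0743). With counts this low, the call was lost when any 1 of the 8 libraries was left out, with an adjusted p of up to 0.162. All 15 chaperones had a negative value in LEGSKO fibers (median -0.20) and none passed in edgeR, while 8 had an unadjusted p below 0.05 and DESeq2 called 2. Of all genes, 2011 of 13436 had an unadjusted p below 0.05, and DESeq2 called 503 of 20482. LEGSKO+BSO against LEGSKO gave no member called in fibers by edgeR or DESeq2, with 0.0298% of all genes called by edgeR. An unadjusted p below 0.05 was reached by 1412 of all 13436 genes and by 4 of 35 members. The smallest p-values there were those of Syvn1 (log2 fold change 0.18, edgeR adjusted p = 0.383) and Derl3 (-0.64, edgeR adjusted p = 0.387), and the groups overlapped for Hspa5 (-0.16), Xbp1 (-0.010), Atf4 (0.14) and Ddit3 (-0.082).

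WT library 1 changed how many members passed in fibers. Without it, 5 members were called in LEGSKO against WT (Dnajc3, Hsp90b1, Xbp1 and Derl1 lower, Atf5 higher), with 4.34% of all genes. Without it, 12 were called in LEGSKO+BSO against WT, with 7.90% of all genes. Those were Atf5, higher, and 11 lower: Hspa5, Hsp90b1, Pdia4, Pdia6, Derl1 and Derl3 as before, and Dnajc3, a J-domain cochaperone that inhibits PERK, Canx, Xbp1, Ddit3 and Ppp1r15a. Xbp1 was then -0.26 (edgeR adjusted p = 0.0291), Ddit3 -0.31 (0.0362) and Ppp1r15a -0.32 (0.0448). Leaving out other libraries lowered the counts, to as few as 0 without library 1 of the LEGSKO+BSO fibers. Every one of the 7 calls kept its direction in all 8 such fits. The call of Derl3 was lost in 2 of them (without LEGSKO+BSO library 1 or 4), those of Hspa5 (without LEGSKO+BSO library 1, 2 or 4) and Atf5 (without WT library 3 or LEGSKO+BSO library 1 or 3) in 3, those of Pdia4 and Pdia6 in 6 and those of Hsp90b1 and Derl1 in 7. Pdia4 kept it only without WT library 1 or 3, Pdia6 only without WT library 1 or 4, and Hsp90b1 and Derl1 only without WT library 1. In LEGSKO against WT, Atf5 kept its call only without WT library 1 or LEGSKO library 4, and Derl1 only without WT library 1. With no filter on low counts, Derl1 did not pass in either comparison (edgeR adjusted p = 0.108 for LEGSKO and 0.120 for LEGSKO+BSO), nor did Hsp90b1 in LEGSKO+BSO (edgeR adjusted p = 0.0659).

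Markers of other cells were measured in the same fibers. Their sums are CPM scaled over all 24 libraries, unlike the fiber values of the members. The summed level of 8 immune cell markers was 4.86 to 6.76 CPM in LEGSKO+BSO, against 1.05 to 1.76 in WT and 0.995 to 1.53 in LEGSKO. Of 2 immune markers with enough reads for a test, Lyz2 was called higher in LEGSKO+BSO against WT (log2 fold change 2.75, edgeR adjusted p = 6.94e-05). The 6 muscle and stroma markers summed to 716 to 818 CPM in WT, 917 to 1098 in LEGSKO and 870 to 1065 in LEGSKO+BSO. Only 1 of them, Acta2, had enough reads for a test in fibers, and Dcn and Lum had no counts there. Against WT, Acta2 was called higher in LEGSKO (log2 fold change 0.39, edgeR adjusted p = 0.0345) and LEGSKO+BSO (0.38, edgeR adjusted p = 0.0192). Between the tissues of WT, Acta2 was called higher in fibers (log2 fold change 2.93), and Col1a1 and Myh11 lower. Red blood cell markers summed to at most 2.84 CPM in any fiber library, blood vessel markers to 2.63, pigmented iris markers to 13.0, corneal markers to 13.5 and retinal markers to 53.1, the last in LEGSKO library 1. Retinal markers ranged from 4.61 to 6.62 CPM in WT, 6.97 to 53.1 in LEGSKO and 5.67 to 6.09 in LEGSKO+BSO. In LEGSKO against WT fibers all 4 retinal markers tested were positive, and Pde6b was called higher (edgeR adjusted p = 0.0392). In LEGSKO+BSO against WT fibers 0 of the 4 were called. Secretory cell markers, a list that holds Derl3 itself, summed to 3.01 to 4.42 CPM in WT and 1.32 to 3.32 CPM in LEGSKO+BSO fibers. Markers of the fiber cells themselves were counted too, as a list of 10 genes that includes Mip, Lim2, Bfsp1 and Bfsp2. All 10 were higher in every fiber library than in any epithelial library. Scaled over the fiber libraries alone, their summed level was 75112 to 138403 CPM in WT fibers, the highest value being that of library 1. It was 74617 to 90224 CPM in LEGSKO and 69674 to 80617 CPM in LEGSKO+BSO. In LEGSKO+BSO against WT fibers all 10 had a negative log2 fold change (median -0.27), 4 had an unadjusted p below 0.05, and neither edgeR nor DESeq2 called any. Without WT library 1, 6 were negative and 4 positive (median -0.041), where the chaperones were negative in 15 of 15 (median -0.18). In LEGSKO against WT fibers the 10 markers were again all negative (median -0.16), and without WT library 1 only 3 were (median 0.082). The part of these cells, and of sequencing depth, in the members' values was not tested.

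The 9 ERSE-bearing members were also counted apart in fibers. In LEGSKO+BSO against WT fibers, 8 of the 9 had a negative value and 4 were called (Hspa5, Hsp90b1, Pdia6 and Derl3), all lower, where 5.52% of all genes were called. Of the 22 tested members with a window and no ERSE, 2 were called, Pdia4 lower and Atf5 higher. The ERSE-bearing Calr (-0.21), Canx (-0.21), Dnajc3 (-0.099), Creld2 (-0.045) and Syvn1 (0.027) did not pass. Without WT library 1, 6 of the 9 were called, Canx and Dnajc3 being added, and 5 of the 22 (Pdia4, Xbp1, Ddit3 and Ppp1r15a lower, Atf5 higher), with 7.90% of all genes. Derl1, called lower, has no window and is in neither count. All of the 9 but Syvn1 and Derl3 are chaperones, and whether motif or role goes with the fall was not tested. These are counts over few genes chosen with results known.

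Within epithelia no member was called in any comparison. In LEGSKO+BSO against WT, where 1.17% of all genes were called, 31 of 37 members had a positive value (median 0.11), 12 had an unadjusted p below 0.05, and neither edgeR nor DESeq2 called any. In LEGSKO against WT (0.842% of all genes called by edgeR), 18 values were positive and 19 negative (median -0.0016), 5 had an unadjusted p below 0.05 and DESeq2 called 2, Pdia4 and Ddit4. In LEGSKO+BSO against LEGSKO (0.722% of all genes), 30 values were positive, 8 had an unadjusted p below 0.05 and DESeq2 called 2, Pdia4 and Creld2. An unadjusted p below 0.05 was reached by 2232, 2132 and 2907 of all 15089 genes in these comparisons, in the order given. DESeq2 called 567, 446 and 678 of 21836 genes in the same order. The chaperones were the most even role, with 14 of 15 positive against WT and 15 of 15 against LEGSKO in the BSO-treated mice. Their summed level, on a scale set within epithelia, was 3652 to 4110 CPM in WT, 3459 to 4058 CPM in LEGSKO and 3972 to 4320 CPM in LEGSKO+BSO, and these ranges overlapped.

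Pdia4 had the smallest p in LEGSKO epithelia. It was at 127, 118, 121 and 128 CPM in WT, at 98.9, 113, 109 and 97.7 CPM in LEGSKO and at 124, 115, 126 and 124 CPM in LEGSKO+BSO. LEGSKO lay below both other groups without overlap, by -0.24 ± 0.06 against WT (edgeR adjusted p = 0.0955), and LEGSKO+BSO stood 0.22 ± 0.06 above LEGSKO (edgeR adjusted p = 0.0999).

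Ddit4 was at 49.0, 40.7, 57.3 and 41.3 CPM in WT epithelia, at 34.6, 31.1, 33.3 and 42.5 CPM in LEGSKO and at 32.9, 37.4, 39.7 and 36.6 CPM in LEGSKO+BSO. It was -0.41 ± 0.12 in LEGSKO, with library 4 inside the WT range (edgeR adjusted p = 0.111), and -0.36 ± 0.12 in LEGSKO+BSO, with no overlap (edgeR adjusted p = 0.141). Creld2, a small ER isomerase, was at 26.0 to 34.0 CPM in WT, 28.1 to 31.1 in LEGSKO and 32.6 to 43.2 in LEGSKO+BSO. Its highest values were in LEGSKO+BSO (0.30 ± 0.10 against WT, edgeR adjusted p = 0.137, and 0.33 ± 0.10 against LEGSKO, edgeR adjusted p = 0.105).

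Hspa5 was at 427, 424, 431 and 491 CPM in WT epithelia, at 426, 480, 491 and 415 CPM in LEGSKO and at 504, 461, 491 and 536 CPM in LEGSKO+BSO. The groups overlapped, and the value in LEGSKO+BSO against WT was 0.17 (edgeR adjusted p = 0.328). Xbp1 gave 0.22 in that comparison (edgeR adjusted p = 0.283), Ddit3 0.12 (0.731) and Atf4 -0.17 (0.317). Atf4 was at 70.9 to 79.1 CPM in WT and at 62.5 to 69.7 CPM in LEGSKO+BSO, groups that did not overlap. In LEGSKO against WT Hspa5, Xbp1, Atf4 and Ddit3 had values of 0.03 to 0.05 on the log2 scale, none called. The sums of other markers that follow are CPM scaled over all 24 libraries. Corneal markers summed to 63.9 to 93.5 CPM in WT epithelia, 137 to 142 in LEGSKO and 111 to 131 in LEGSKO+BSO. Of these 6 genes Krt15 and Krt19 had enough reads for a test, and edgeR called both higher against WT in each deficient group. Their log2 fold changes were 0.73 to 1.35 in LEGSKO and 0.56 to 1.14 in LEGSKO+BSO. Retinal markers summed to 48.9 to 271 CPM in WT, 16.8 to 210 in LEGSKO and 12.2 to 81.7 in LEGSKO+BSO. All 8 retinal markers were negative in LEGSKO+BSO against WT (median log2 fold change -1.67), 5 had an unadjusted p below 0.05, and neither edgeR nor DESeq2 called any. The 10 fiber markers were all negative in epithelia as well, with a median of -0.51 in LEGSKO against WT (4 at an unadjusted p below 0.05, 0 called by edgeR and 2 by DESeq2) and of -0.32 in LEGSKO+BSO against WT (1 at an unadjusted p below 0.05, 0 called by either). Their part in the members' values was not tested.

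**Figure D4:**
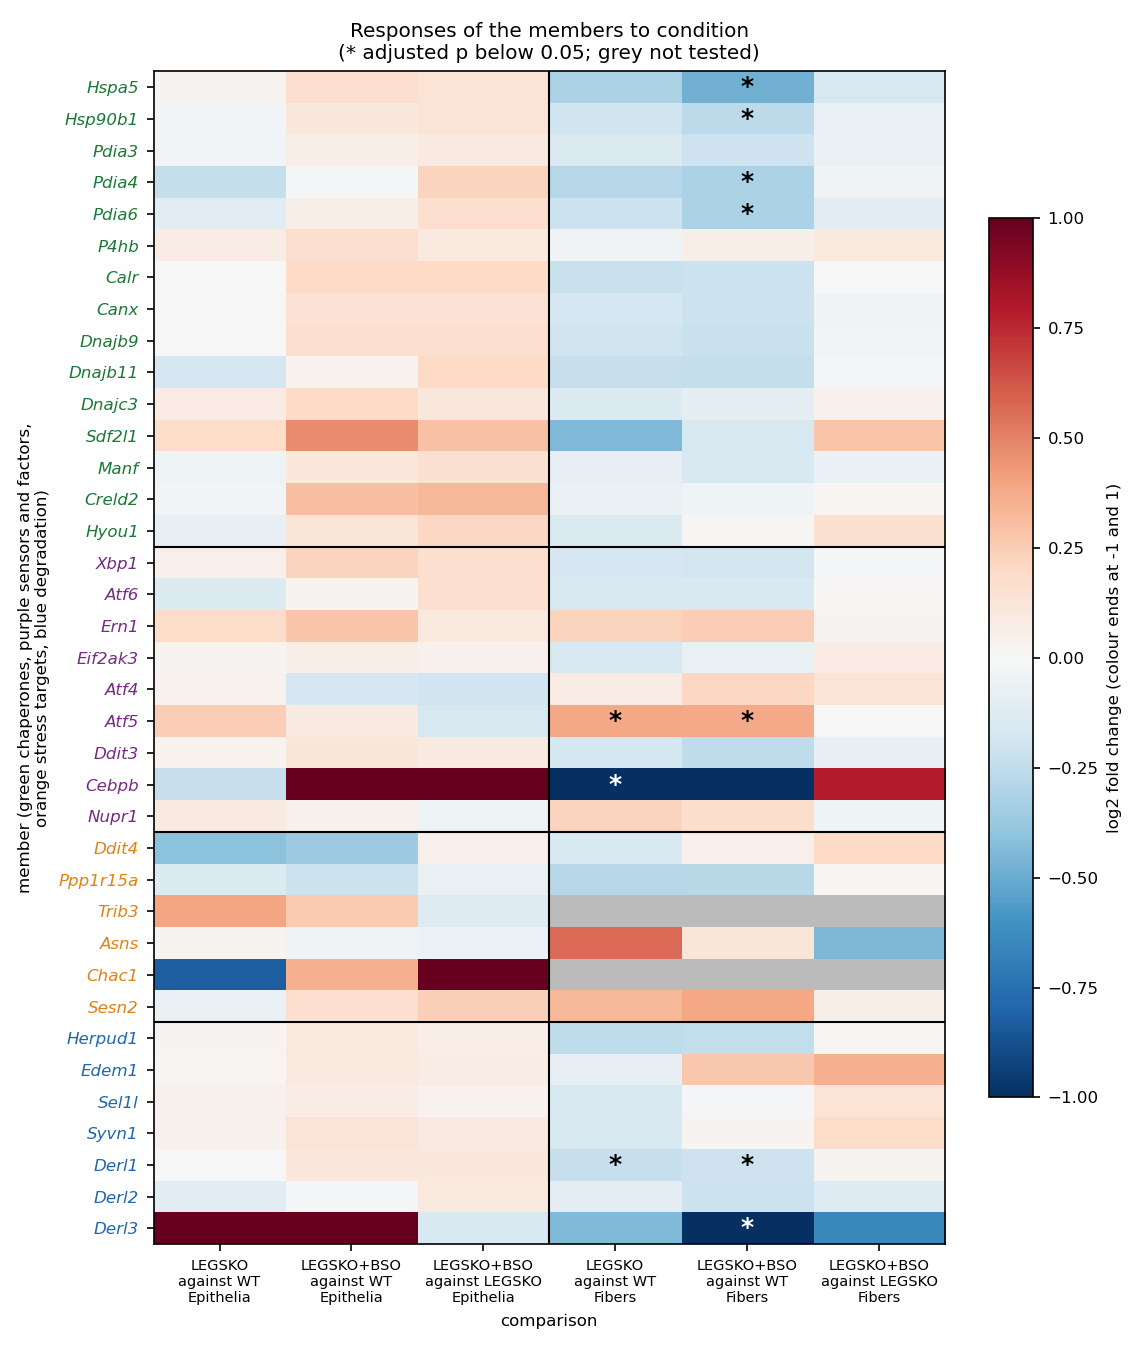
Log2 fold change of every member (rows, grouped by role) in the 6 comparisons of conditions within a tissue (columns; colour: log2 fold change; stars: adjusted p below 0.05; grey: not tested). Stars occur only in the columns of fibers against WT, 3 for LEGSKO and 7 for LEGSKO+BSO.

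Whether the response differed between the tissues was tested directly, in 1 fit over all 24 libraries. For LEGSKO+BSO against WT, 2 of 37 members were called, Hspa5 and Derl3, against 0.276% of all genes. The change of Hspa5 in fibers minus that in epithelia was -0.65 ± 0.14 on the log2 scale (edgeR adjusted p = 0.0460). On the common scale its means were 490 CPM in WT fibers and 351 in LEGSKO+BSO fibers, against 299.7 and 336 in epithelia. Without WT fiber library 1 the difference was -0.50 and fell just outside the threshold (edgeR adjusted p = 0.0502). The difference for Derl3 was -2.45 ± 0.50 (edgeR adjusted p = 0.0389), and -2.28 without that library (edgeR adjusted p = 0.0363). It rests on 4, 2, 4 and 3 counts in WT epithelia and on 12, 4, 5 and 21 in LEGSKO+BSO epithelia. Across all 16 fits with 1 library left out, Derl3 passed in 8 and Hspa5 in 6, always as a negative difference. With RLE scaling Hspa5 did not pass (-0.65, edgeR adjusted p = 0.0540). Derl3 lost its call without WT epithelial library 2 or 3, LEGSKO+BSO epithelial library 1 or 4, WT fiber library 4 or LEGSKO+BSO fiber library 1, 2 or 4. Hspa5 lost its call without library 1, 2 or 3 of WT epithelia, 1, 3 or 4 of LEGSKO+BSO epithelia, 1 of WT fibers or 1, 2 or 4 of LEGSKO+BSO fibers.

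The other members leaned the same way. All 15 chaperones had a negative difference (median -0.35), 12 of them at an unadjusted p below 0.05, and over all members 29 were negative and 8 positive (median -0.27 against 0.01 over all genes). Of all 15560 genes, 2121 had an unadjusted p below 0.05. Hsp90b1 (-0.37, edgeR adjusted p = 0.0655), Calr (-0.41, edgeR adjusted p = 0.0798) and Canx (-0.35, edgeR adjusted p = 0.0919) came closest among those not called. Xbp1 was at -0.40 (edgeR adjusted p = 0.166), Ddit3 at -0.37 (edgeR adjusted p = 0.317) and Atf4 at 0.38 (edgeR adjusted p = 0.306). For LEGSKO against WT no member's difference was called by edgeR or DESeq2, with 0.103% of all genes called by edgeR. An unadjusted p below 0.05 was reached by 1410 of all 15560 genes and by 7 members. The smallest p among members was that of Derl3 (-1.96, edgeR adjusted p = 0.162). For LEGSKO+BSO against LEGSKO none was called by edgeR or DESeq2 either, with 0.0321% of all genes called by edgeR. Here 1645 of all 15560 genes and 3 members had an unadjusted p below 0.05. Pdia4 (-0.24, edgeR adjusted p = 0.401) and Creld2 (-0.30, edgeR adjusted p = 0.423) had the smallest p-values among members.

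**Figure D5:**
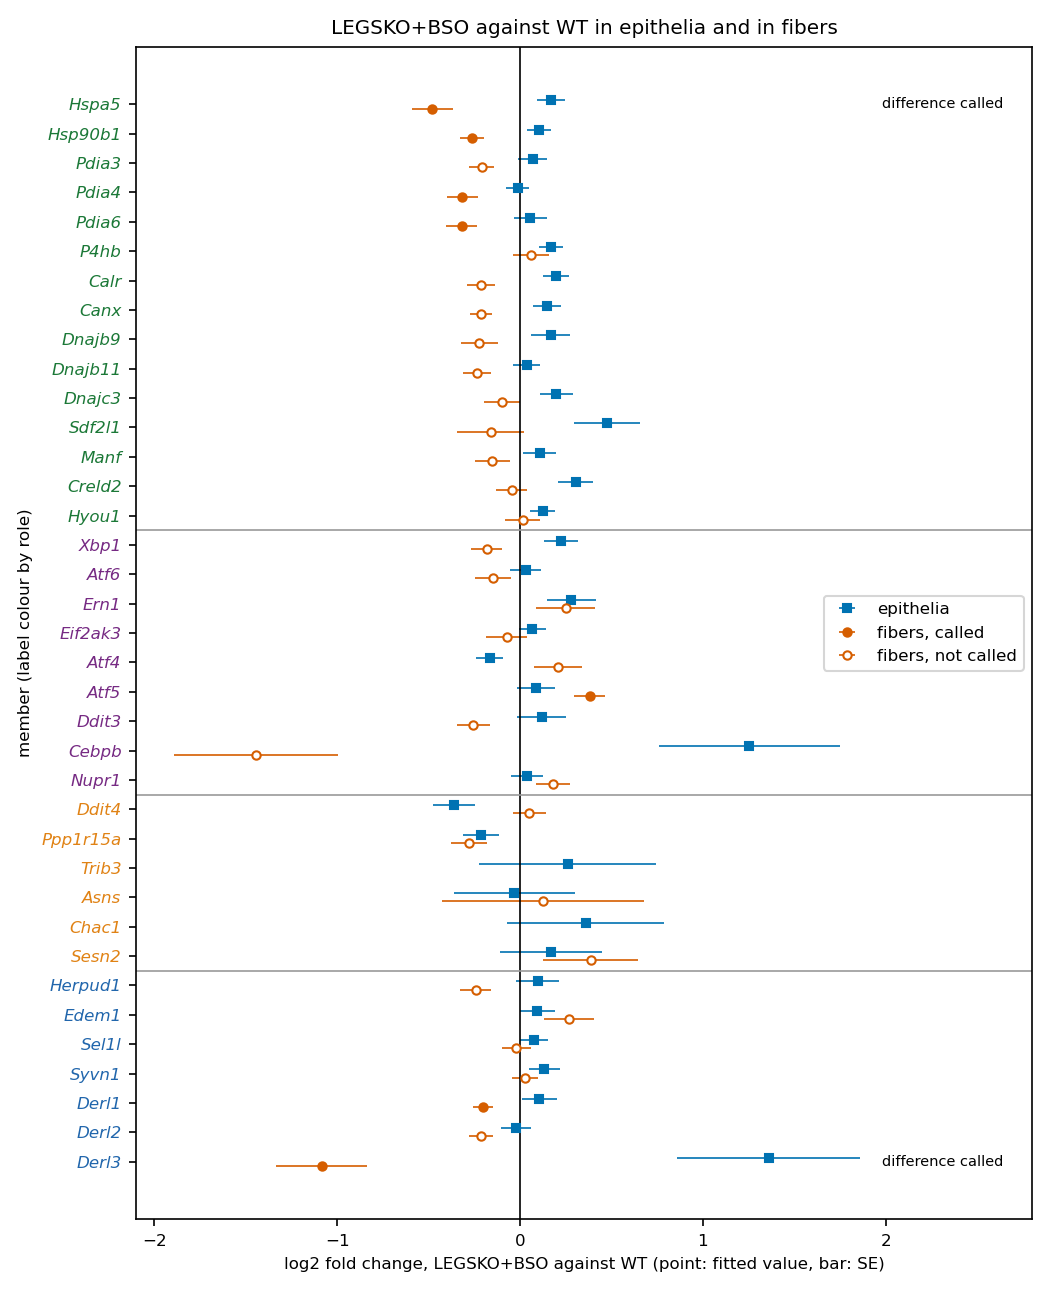
Log2 fold change of each member in LEGSKO+BSO against WT, in epithelia and in fibers (horizontal axis; points: fitted values, bars: SE; filled circles: called in fibers; labels at the right mark members whose difference between the tissues was called). Hspa5 lies at 0.17 in epithelia and at -0.48 in fibers.

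Genes of the same pathways outside the 37 were counted in the same way. Over the 5 lists, 8 of 134 tested genes were called in LEGSKO+BSO against WT fibers, 7 lower and 1 higher. That is 5.97%, near the 5.52% of all genes. Without WT library 1 it was 16 of 135, 10 lower and 6 higher, or 11.9% against 7.90% of all genes. In LEGSKO+BSO against WT fibers, 4 of 29 tested genes of ER folding and oxidation were called, 3 lower and 1 higher. They included Cdnf, the paralogue of the secreted ER factor Manf (-0.51, edgeR adjusted p = 0.0037), and the thioredoxin-related oxidoreductase Tmx3 (-0.32, edgeR adjusted p = 0.0179). Of 26 genes of ER translocation, signal peptidase and N-glycosylation, 2 were called, the translocon-associated Ssr3 and Ssr1, both lower. Of 24 further degradation genes none was called by edgeR, 1 by DESeq2, and 4 had an unadjusted p below 0.05. Of 26 genes of stress sensing and eIF2, 1 was called, Impact, an inhibitor of GCN2 (lower), and of 29 ATF4 target genes of amino acid metabolism and transport 1 was called, Vegfa (lower). In LEGSKO fibers 1 gene of these lists was called, the proline synthesis enzyme Aldh18a1 (-0.36, edgeR adjusted p = 0.0495), and in LEGSKO+BSO epithelia 1, the kinase PKR gene Eif2ak2 (-0.41, edgeR adjusted p = 0.0089).

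Between the tissues of WT, 115 of 138 genes of these lists were called (83.3%, against 76.4% of all genes). In ER folding and oxidation, 10 of 31 tested genes were higher and 17 lower in fibers. In degradation 16 of 24 were higher and 6 lower, in translocation and glycosylation 15 of 26 and 10, in stress sensing 11 of 26 and 7, and in the ATF4 target genes 11 of 31 and 12. Cdnf was 2.26 higher on the log2 scale and Gpx8, an ER peroxidase, 4.50 lower (log2 fold change -4.50). Eif2s1 and Eif2s2, which encode subunits of eIF2, were higher by 2.93 and 2.12, and Mthfd2, a mitochondrial folate enzyme under ATF4 control, by 4.54.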

How the data were processed

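RNA was sequenced from 24 mouse lens libraries, 4 in each of 6 groups. The authors deposited 1 table of raw read counts per gene, in whole numbers. Per the submitters' processing notes, bcl2fastq, CASAVA 1.8, TopHat and DESeq were used with mm10. The counting tool, its annotation and its use of strand were not given in the sources used here, so genes that overlap on either strand cannot be told apart, and reads of near-identical copies may be split. Of the gene identifiers, 81 had no symbol (0.914% of counts) and stayed in the tests. Genes were filtered with filterByExpr (minimum count 10, minimum total 15), scaled by TMM and tested, two-sided, with edgeR 4.0.16 and limma 3.58.1 in R 4.3.3, with Benjamini-Hochberg adjustment over all genes and a threshold of 0.05. The 12 libraries of a tissue were fitted together for conditions, and all 24 for tissues and differences. The biological coefficient of variation common to all genes was 14.2% (epithelia) and 12.8% (fibers). DESeq2 1.42.0, RLE scaling, no filter, a replicate block and leaving out each library were alternatives. The scripts were tested on simulated data. No pair of libraries agreed within sampling noise. CPM and RPKM were computed from the deposited counts, RPKM with the length of the merged GENCODE exons of each gene.

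The members, roles, pathway and marker lists were chosen with earlier results of these data known. Full statistics are given for members called between conditions or in a difference, for the pair with the smallest p in each of those comparisons, for the 6 highest and 6 lowest tissue changes in WT at a mean log2 CPM of at least 1, for Hspa5, Xbp1, Atf4 and Ddit3, and for the leading genes of each pathway list. Nupr1, Canx and others were named after their values were seen, for their level or role. Sequences are from RefSeq on GRCm38.p6. A part of the fiber marker list is not reported here.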

Additional observations from a re-analysis of the deposited data

Results flagged for a closer look

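In 14 genes, each of the 6 groups of 4 libraries was checked for a library far from the others, as the gap to its nearest neighbour divided by the range of the group, against Dixon's 95% critical value. Over these 84 groups chance alone marks about 1 in 20. Hspa5 had such a library in WT fibers, library 1 (0.883), and in WT epithelia, library 4 (0.909). Pdia6 had one in WT fibers, again library 1 (0.897). Atf4 had one in LEGSKO epithelia, library 2, the lowest (0.845), and Derl1 one in LEGSKO fibers, library 2, the highest (0.834).

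The response to LEGSKO+BSO against WT differed between the tissues by a direct test for Hspa5, with a log2 change in fibers minus that in epithelia of -0.65, and for Derl3, with -2.45. Neither held throughout. The Hspa5 difference did not pass without WT fiber library 1 (edgeR adjusted p = 0.0502), with RLE scaling (0.0540) or with a replicate block (0.0867), and passed in 6 of 16 fits with 1 library left out. The Derl3 difference did not pass with a replicate block (edgeR adjusted p = 0.0752) and passed in 8 of those 16.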

How the results depend on the processing

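The number of members called was 0 in the epithelial comparisons under every alternative, except that DESeq2 called 2 in LEGSKO against WT and 2 in LEGSKO+BSO against LEGSKO. In fibers, LEGSKO against WT gave 3 calls, 5 with DESeq2, 0 with a replicate block and 0 to 5 with 1 library left out. LEGSKO+BSO against WT gave 7 calls, 11 with DESeq2, 3 with a replicate block and 0 to 12 with 1 library left out. The difference between tissues for LEGSKO+BSO gave 2 calls, 6 with DESeq2, 1 with RLE scaling, 0 with a replicate block and 0 to 3 with 1 library left out. The cause was not tested. The comparisons of tissues kept 29 to 33 calls, and LEGSKO+BSO against LEGSKO in fibers and the other differences kept 0. The labels do not tie replicate numbers to an animal or a day, and the correlations of same-numbered libraries ran from -0.314 to 0.339, so the numbers were not taken as pairs. Between the tissues of 1 condition they were all positive in WT (0.0952 to 0.339) and LEGSKO+BSO (0.0857 to 0.243), but not in LEGSKO (-0.116 to 0.0431). In LEGSKO+BSO 4 of 4 libraries correlated best with their own number, in WT 3 of 4 and in LEGSKO 1 of 4. That is a hint from the data that stays under the bar used (every correlation over 0.1). With the replicate block the called differences gave adjusted p-values of 0.0867 for Hspa5 and 0.0752 for Derl3. Over all genes, calls in LEGSKO+BSO against WT fibers were 742, 1140 with DESeq2 and 551 with a replicate block. LEGSKO against WT fibers gave 220, 503 and 143 in the same order. The difference between tissues for LEGSKO+BSO against WT gave 43, 302 and 35, and 38 with RLE scaling. DESeq2 tested 20482 genes in fibers and 22434 for the difference, against 13436 and 15560 with edgeR.

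Some values that were not called changed sign with 1 library left out. In LEGSKO against WT epithelia, Hspa5 ran from -0.0099 to 0.084, Xbp1 from -0.027 to 0.14 and Ddit3 from -0.10 to 0.13. Atf4 ran from -0.082 to 0.16 in LEGSKO against WT fibers and from -0.10 to 0.11 in the difference for LEGSKO, and Xbp1 from -0.047 to 0.030 in LEGSKO+BSO against LEGSKO fibers. No called member changed direction under any scaling. Depth limits Derl3 and Cebpb, whose counts are low, and Trib3 and Chac1, which could not be tested in fibers.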
